A study of Mus musculus with 18 samples.

Results

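Chemokine ligands are the secreted or membrane-held proteins that guide leukocytes, and their genes were followed in thymocytes of ageing mice. The members were the non-control probes whose name in the array files was a Ccl or Cxcl number, Xcl1 or Cx3cl1, with Ccl5 and Ccl25 left out. This rule found 31 probes for 28 genes among 41174 distinct probes on the array, and 29 probes for 26 genes were bright enough to be tested. Ccl19, Ccl24 and Cxcl16 had 2 probes each, which are given separately, and the remaining genes had 1. The array names Cxcl4 and Cxcl7 are given here under their current symbols Pf4 and Ppbp. Ccl21c shares nearly its whole sequence with other Ccl21 copies, so its probe cannot be assigned to a single copy.

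Thymocytes were isolated from C57BL/6 mice with no further genetic change or treatment named in the labels. Each of 9 Agilent arrays carried Cy3-labelled RNA from a mouse of 6, 16 or 24 months, 3 mice per age, against Cy5-labelled RNA from 1 month old mice. The series text calls the 1 month RNA a pool while the sample labels number single mice, so it was treated as 1 control sample and its own biological spread is left out of every comparison with it. Cy3 carried the older mouse on all 9 arrays, and so a difference from the 1 month reference cannot be told apart from a difference between the dyes. A value below is the log2 ratio of Cy3 to Cy5 on an array, positive when the signal was higher in the older mouse. A probe was said to have risen or fallen at a Benjamini-Hochberg adjusted p under 0.05 in limma over all 37448 probes tested.

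Chemokines signal through G protein-coupled receptors on the cells they attract. In the thymus, the homeostatic ligands made by epithelium and other stroma (Cxcl12, Ccl19, Ccl21, Ccl25) bring in precursors and move developing thymocytes between cortex and medulla, while Ccl17, Ccl22 and Xcl1 act on medullary thymocytes and dendritic cells. The inflammatory ligands are made mostly by activated macrophages, dendritic cells, lymphocytes and stroma.

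The suspension was strained and its red cells were lysed, per the labels, but it was not sorted. The 10 tested thymocyte markers were well above background on all arrays. Markers of other cells were also measured, and in such a bulk sample fewer cells of a type and less RNA per cell cannot be told apart. Between 79.6% and 94.2% of features were well above background in Cy3, lowest on 24 month replicate 2, and between 90.5% and 95.4% in Cy5. With 3 arrays per age, the number of arrays sets the precision.

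As processed by the authors, the chemokine ligands did not move as a block against the 1 month reference. At 6 months 0 of 29 probes rose and 2 fell, where 7.61% of all tested probes rose and 4.76% fell. At 16 months 6 rose and 2 fell, where 11.4% of all probes rose and 6.59% fell. At 24 months 3 rose and 4 fell, where 11.6% of all probes rose and 13.3% fell. These shares lie close to those of the array as a whole except for the rises at 16 months, 6 of 29 against 11.4%. Those rises include Ccl3, which was bright enough to be tested only through 16 and 24 months, where it was high. The median chemokine log2 ratio was -0.09 at 6 months, -0.02 at 16 months and 0.06 at 24 months, against -0.01, -0.01 and -0.02 over all probes. This depended on the processing. When raw signals were corrected by normexp and only centred, the medians were 0.25, 0.29 and 0.54, against 0.02, 0.0004 and 0.003 over all probes. Of the 29 probes 10, 11 and 19 then rose and 3, 2 and 4 fell. Over all 37448 probes 10610, 8075 and 13409 then rose and 8729, 8095 and 13015 fell. The 3 comparisons share the reference, so they are given side by side and not compared as independent results.

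**Figure D1:**
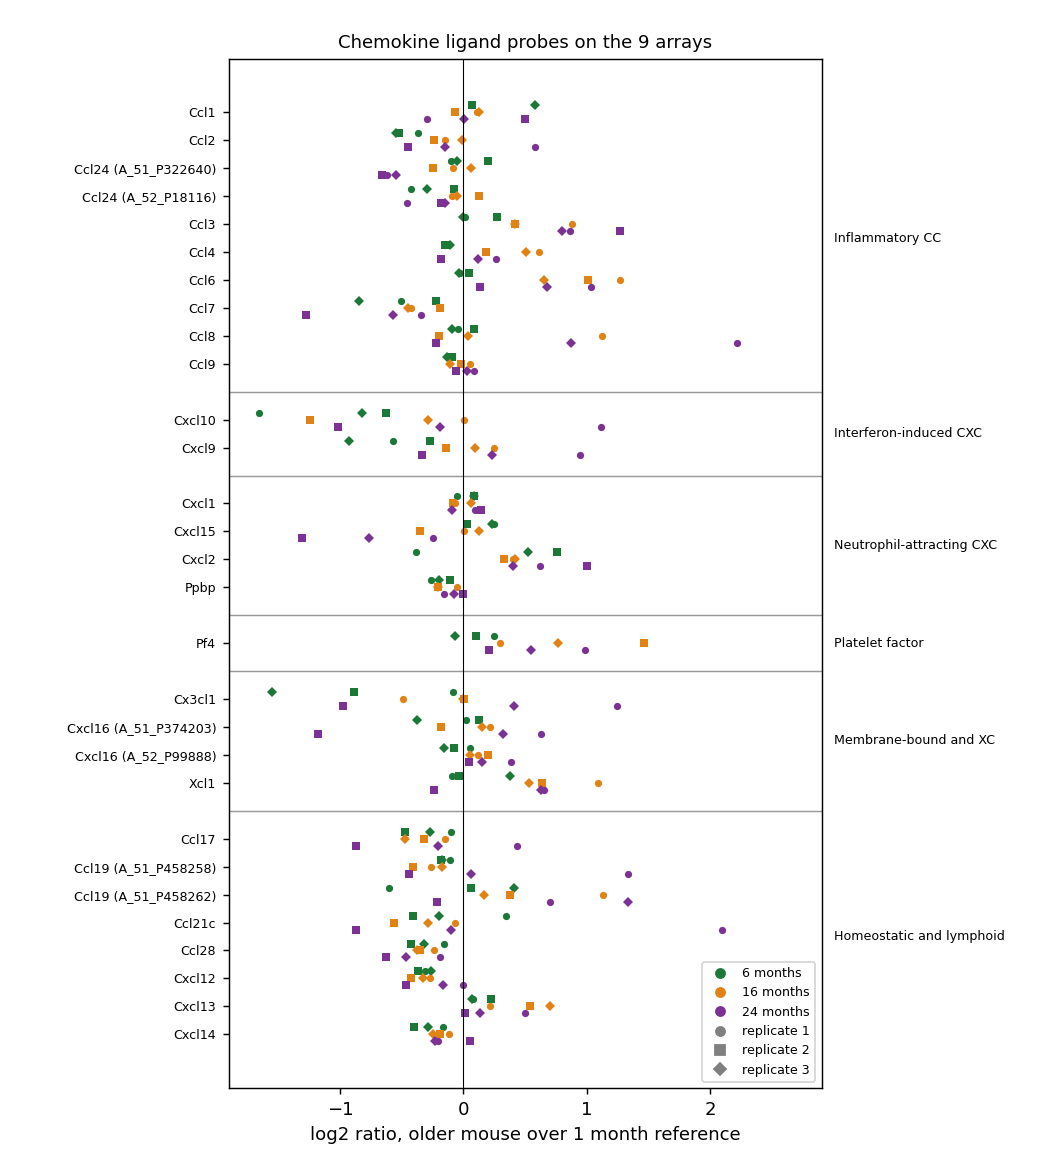
Log2 ratio of the older mouse over the 1 month reference (x axis) for the 29 tested chemokine ligand probes (y axis, by role), with 1 point per array, colour for age and shape for replicate. The 24 month points of Ccl8, Ccl21c, Cx3cl1 and Cxcl10 lie more than 2 log2 units apart between replicates 1 and 2. Of these, Ccl21c, Cx3cl1 and Cxcl10 were not well above background in Cy3 on replicate 2.

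Between the older ages, limma called 0 of 29 chemokine probes and 0 of 37448 probes in all for 16 against 6 months, 24 against 6 months and 24 against 16 months, a background of 0% in each. The F test for any difference among the 3 ages also called 0 in both. At an unadjusted p under 0.05, 5 chemokine probes differed for 16 against 6 months (6.38% of all probes), 6 for 24 against 6 months (9.11%), 4 for 24 against 16 months (4.77%) and 5 in the F test (6.64%). For 16 against 6 months, 8 of 29 probes had all 16 month arrays above all 6 month arrays, where 7.18% of all probes did, and 0 had all of them below, where 6.63% did. These 8 were Ccl2, Ccl3, Ccl4, Ccl6, Cxcl9, Pf4, Xcl1 and probe A_52_P99888 of Cxcl16. Ccl3 was bright enough to be tested only through 16 and 24 months, so its place in counts against 6 months was partly set by the filter. For 24 against 6 months the counts were 3 higher (Ccl3, Ccl6 and Ccl9, background 5.76%) and 2 lower (Cxcl15 and probe A_51_P322640 of Ccl24, background 9.94%). For 24 against 16 months they were 0 higher (4.22%) and 2 lower (both probes of Ccl24, 6.24%). The median chemokine difference for 16 against 6 months was 0.17, against 0.01 over all probes. It was 0.04 when raw signals were corrected by normexp and loess, and -0.04 when they were corrected by normexp and only centred. For 24 against 6 months the chemokine median was 0.20 (0.13 and 0.19 under those settings), against -0.02 over all probes, and 24 of 29 probes were above 0, against 44.8% of all probes.

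Among the inflammatory CC ligands, which draw monocytes, macrophages, T cells and eosinophils, 3 of 10 tested probes rose at 16 months (11.4% of all probes rose) and 0 fell (6.59%). At 24 months 2 rose (11.6%) and 2 fell (13.3%), shares near the background, and at 6 months 0 were called. The risers were Ccl3 and Ccl4, inflammatory chemokines of macrophages and T cells, and Ccl6, a mouse macrophage-attracting chemokine. Of these, Ccl3 entered the test only through the ages where it was high, which limits the counts that include it.

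Ccl3 log2 ratios were 0.02, 0.27 and 0.00 at 6 months, 0.88, 0.42 and 0.42 at 16 months and 0.87, 1.27 and 0.80 at 24 months. The 6 month arrays lay below all others, and the 16 and 24 month arrays overlapped in a single value. Against the reference Ccl3 was 1.49-fold higher at 16 months (log2 0.57, SE 0.12, adjusted p = 0.0182) and 1.97-fold higher at 24 months (0.98, SE 0.12, adjusted p = 0.00341), in 3 of 3 mice at both ages. The Ccl3 probe is dim. Its Cy3 signal was well above background on 1 of 3 arrays at 6 months and on all arrays at 16 and 24 months, so it entered the test only through the ages where it was high. Its reference signal also moved between arrays, from 5.96 to 7.60 on the log2 scale. With normexp and loess the difference was 0.11 at 16 months (adjusted p = 0.103) and 0.13 at 24 months (adjusted p = 0.068), so both calls were lost. The 16 month call was also lost without 16 month replicate 1 or 2 (adjusted p up to 0.076).

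Ccl4 log2 ratios were -0.15, -0.15 and -0.11 at 6 months, 0.61, 0.18 and 0.51 at 16 months and 0.26, -0.18 and 0.12 at 24 months. Every 16 month array was above every 6 month array, and the 24 month arrays reached from below the 6 month values into the 16 month range. Ccl4 rose at 16 months (log2 0.43, SE 0.10, adjusted p = 0.0237) and was at 0.06 at 24 months (adjusted p = 0.661). The 16 month call was lost without 16 month replicate 1 or 3 (adjusted p up to 0.108). For 16 against 6 months the difference was 0.57 (SE 0.14, unadjusted p = 0.0038, adjusted p = 0.769).

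Ccl6 had the largest 16 month rise of the tested members. Its log2 ratios were -0.03, 0.05 and -0.03 at 6 months, 1.27, 1.01 and 0.65 at 16 months and 1.03, 0.14 and 0.68 at 24 months. All older arrays were above all 6 month arrays, and 24 month replicate 2 lay closest to them. The gene was 1.97-fold higher than the reference at 16 months (log2 0.98, SE 0.16, adjusted p = 0.00827) and 1.53-fold higher at 24 months (0.62, SE 0.16, adjusted p = 0.031). The first call was lost without 16 month replicate 2 (adjusted p = 0.0618), the second without 6 month replicate 2, 24 month replicate 1 or 24 month replicate 3 (adjusted p up to 0.141). For 16 against 6 months Ccl6 differed by 0.98 (SE 0.23, adjusted p = 0.769).

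Ccl7 and Ccl24 moved the other way at 24 months. Ccl7, a monocyte chemoattractant, had log2 ratios of -0.50, -0.22 and -0.85 at 6 months, -0.43, -0.19 and -0.45 at 16 months and -0.35, -1.27 and -0.57 at 24 months. All 9 arrays were below 0 and the ages overlapped. It fell by 0.73 on the log2 scale at 24 months (SE 0.18, adjusted p = 0.0232), and the call was lost without 24 month replicate 2 (adjusted p = 0.0848). Ccl24, an eosinophil attractant of the eotaxin group, had probe A_51_P322640 at -0.10, 0.20 and -0.05 at 6 months, -0.09, -0.25 and 0.06 at 16 months and -0.62, -0.66 and -0.55 at 24 months. The 24 month arrays lay below all others. This probe fell by 0.61 (SE 0.08, adjusted p = 0.00348) at 24 months and kept the call with each array left out in turn. The other Ccl24 probe, A_52_P18116, was at -0.26 at 24 months (adjusted p = 0.0608) and at -0.27 at 6 months, so the probes differ in the ages at which they were low. Cy3 was well above background on 1 of 3 arrays for Ccl7 and on 2 of 3 for the Ccl24 probe at 24 months. Both directions turned with normexp and centring alone, to 0.74 for Ccl7 and 0.72 for the Ccl24 probe (adjusted p = 0.00478 and 0.00694), and with normexp and loess Ccl7 stood at -0.12 and was not called (adjusted p = 0.0603).

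Of the other inflammatory CC ligands, Ccl1 ratios were 0.06, 0.07 and 0.58 at 6 months, 0.11, -0.07 and 0.12 at 16 months, and -0.30, 0.49 and 0.01 at 24 months. Ccl1, a ligand of Ccr8, gave overlapping ages throughout. Ccl9 stayed within -0.13 and 0.08 on all 9 arrays. Ccl2, the main monocyte chemoattractant, lay between -0.55 and -0.37 at 6 months, between -0.24 and -0.01 at 16 months and between -0.45 and 0.58 at 24 months, and passed no test.

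Upstream sequences were available for 21 of the 28 genes, from RefSeq on build GRCm38.p6. For Ccl3, Ccl6 and Xcl1, which rose at 16 months, and for Cxcl2 and Cxcl10, which hold NF-kB-type letters, the 250 bases before the gene's start are given 5′ to 3′ in the direction of the gene. Capitals mark matches to any of 5 short motifs, searched on both strands with overlaps allowed and spelled out after the sequences.
Ccl3, chr11:83649379-83649628, minus strand: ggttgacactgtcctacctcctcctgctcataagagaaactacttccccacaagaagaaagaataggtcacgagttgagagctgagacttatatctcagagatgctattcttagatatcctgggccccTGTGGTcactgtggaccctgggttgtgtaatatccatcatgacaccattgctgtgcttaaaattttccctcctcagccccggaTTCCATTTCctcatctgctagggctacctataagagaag
Ccl6, chr11:83593088-83593337, minus strand: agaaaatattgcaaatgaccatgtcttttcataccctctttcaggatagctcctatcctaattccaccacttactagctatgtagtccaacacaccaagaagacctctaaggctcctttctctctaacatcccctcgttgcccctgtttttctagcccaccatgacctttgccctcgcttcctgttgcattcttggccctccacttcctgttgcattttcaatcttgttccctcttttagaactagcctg
Xcl1, chr1:164935523-164935772, minus strand: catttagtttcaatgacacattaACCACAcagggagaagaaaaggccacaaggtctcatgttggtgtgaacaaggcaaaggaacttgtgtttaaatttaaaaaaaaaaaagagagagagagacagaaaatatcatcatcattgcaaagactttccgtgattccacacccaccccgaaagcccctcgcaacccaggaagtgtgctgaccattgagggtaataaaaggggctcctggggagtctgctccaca
Cxcl2, chr5:90903649-90903898, plus strand: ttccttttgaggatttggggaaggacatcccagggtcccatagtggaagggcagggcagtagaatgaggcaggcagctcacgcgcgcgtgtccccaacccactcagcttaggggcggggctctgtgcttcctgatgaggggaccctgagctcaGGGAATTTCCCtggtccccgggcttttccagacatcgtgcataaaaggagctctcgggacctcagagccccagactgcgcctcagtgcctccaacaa
Cxcl10, chr5:92348890-92349139, minus strand: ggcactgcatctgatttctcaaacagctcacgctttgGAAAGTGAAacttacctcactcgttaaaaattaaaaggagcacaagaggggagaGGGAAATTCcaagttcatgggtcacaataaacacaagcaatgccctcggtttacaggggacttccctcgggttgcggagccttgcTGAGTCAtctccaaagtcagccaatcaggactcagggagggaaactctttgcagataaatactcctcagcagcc
The letters GGGANNTTC, of the NF-kB type, were found upstream of 5 of the 21 genes (Ccl1, Cxcl1, Cxcl2, Cxcl9 and Cxcl10) and upstream of 3.23% of 32851 entries in the table. The interferon response type, GAAANNGAA, was found for 6 (Ccl1, Ccl3, Ccl19, Cxcl9, Cxcl10 and Cxcl14) and in 7.13% of entries. The AP-1 type, TGANTCA, was found for 3 (Ccl9, Cxcl10 and Ppbp) and in 6.75%. The TATA box letters TATAAA were found for 7 (Ccl8, Ccl9, Cx3cl1, Cxcl9, Cxcl13, Cxcl15 and Ppbp) and in 12.4%. The Runx type, TGTGGT, was found for 3 (Ccl3, Cxcl9 and Xcl1) and in 14.0%. Ccl6 holds none of the 5 in this window. A match describes these letters only, and of the 2 printed NF-kB-type genes Cxcl2 rose at 24 months and Cxcl10 passed no test.

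Xcl1, a ligand of the dendritic cell receptor Xcr1 made by activated T cells, NK cells and medullary epithelium, had log2 ratios of -0.09, -0.03 and 0.38 at 6 months, 1.09, 0.63 and 0.53 at 16 months and 0.66, -0.24 and 0.63 at 24 months. All 16 month arrays were above the 6 month arrays. At 24 months replicate 2 lay below 0 and the other two arrays lay within the 16 month range. Xcl1 was 1.68-fold higher than the reference at 16 months (log2 0.75, SE 0.19, adjusted p = 0.0321). It stood at 0.35 at 24 months (SE 0.19, adjusted p = 0.208). The call was lost without 6 month replicate 2 or any of the 16 month replicates (adjusted p up to 0.143).

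Pf4, the platelet factor of megakaryocytes and platelets, which macrophages can also express, had log2 ratios of 0.25, 0.10 and -0.07 at 6 months, 0.30, 1.46 and 0.77 at 16 months and 0.98, 0.21 and 0.55 at 24 months. Each 16 month array was above each 6 month array, with 0.30 and 0.25 as the nearest values. Pf4 was 1.79-fold higher than the reference at 16 months (log2 0.84, SE 0.21, adjusted p = 0.0316) and at 0.58 at 24 months (adjusted p = 0.0808). The 16 month call was lost without 6 month replicate 2, 16 month replicate 2 or 16 month replicate 3 (adjusted p up to 0.164). The other platelet chemokine, Ppbp, did not rise with it: its ratios ran from -0.27 to 0.00 over the 9 arrays.

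Cxcl13, the B cell attractant of lymphoid follicles, had log2 ratios of 0.07, 0.22 and 0.07 at 6 months, 0.21, 0.54 and 0.70 at 16 months and 0.50, 0.01 and 0.13 at 24 months. All 9 were above 0, and the ages overlapped. It rose at 16 months (log2 0.48, SE 0.11, adjusted p = 0.0245), and the call was lost without 16 month replicate 2 or 3 (adjusted p up to 0.133). At 24 months it stood at 0.21 (adjusted p = 0.192).

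Markers of other cells were measured beside these genes, and limma called 0 genes of any marker list between 16 and 6 months. In the list of dendritic cell and macrophage genes, 14 of 15 were tested. Of the 14, 13 had a 16 against 6 month difference above 0 (median 0.19), against 52.7% of all probes. The summed Cy3 signal of the 14 was 34873 to 37387 at 6 months, 49802 to 86907 at 16 months and 42402 to 94037 at 24 months, against 39119 to 44933 in the reference. All 14 were well above background in Cy3 on every array but 24 month replicate 2, where 1 was not. Their part in the rises of Ccl3, Ccl4, Ccl6, Xcl1, Pf4 and Cxcl13 was not tested. The 16 against 6 month difference was also above 0 for 4 of 4 erythroid (median 2.73), 9 of 9 granulocyte (0.66) and 5 of 5 B cell genes (0.29). It was above 0 for 7 of 8 thymic epithelium (0.22), 4 of 5 fibroblast (0.24), 5 of 10 thymocyte (0.02) and 2 of 4 endothelial genes (0.005). The part of these lists was not tested. The granulocyte list reached a mean log2 ratio of 1.32 on 16 month replicate 2, the array with the highest Pf4 value, and was at -0.69 and -1.64 on the other 16 month arrays. In the NK and cytotoxic list 7 of 7 genes were above 0 against the reference at 16 months (median 0.21), where 47.3% of all probes were. Of the 7, 1 rose, near the 11.4% of all probes. For 16 against 6 months 5 of 7 were above 0 (median 0.19).

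Of 8 tested probes of the homeostatic and lymphoid ligands 2 fell at 6 months (4.76% of all probes fell), 2 fell (6.59%) and 1, Cxcl13, rose (11.4%) at 16 months, and 1 fell at 24 months (13.3%, so that the last count is at the background). Cxcl12, the stromal ligand of Cxcr4 that holds precursors and cortical thymocytes, had log2 ratios of -0.31, -0.37 and -0.26 at 6 months, -0.27, -0.42 and -0.33 at 16 months and -0.01, -0.46 and -0.16 at 24 months. All 9 arrays were below 0, with the 24 month arrays on either side of the younger ones. It fell by 0.31 at 6 months (SE 0.08, adjusted p = 0.0443) and by 0.34 at 16 months (SE 0.08, adjusted p = 0.0272), and was at -0.21 at 24 months (adjusted p = 0.0936). The 6 month call was lost with all but 2 of the 9 arrays left out in turn (the exceptions were 24 month replicates 1 and 2), and the 16 month call without any of the 16 month replicates (adjusted p up to 0.208 and 0.157).

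Ccl28, an epithelial ligand of Ccr10, had log2 ratios of -0.15, -0.42 and -0.32 at 6 months, -0.24, -0.35 and -0.38 at 16 months and -0.19, -0.62 and -0.47 at 24 months. All arrays were below 0 and the ages overlapped. It fell by 0.32 at 16 months (SE 0.09, adjusted p = 0.0385) and by 0.43 at 24 months (SE 0.09, adjusted p = 0.0137). The 24 month call was lost without 24 month replicate 2 (adjusted p = 0.0631), and the 16 month call without 24 month replicate 3, 6 month replicate 2 or 3, or any 16 month replicate (adjusted p up to 0.175). Ccl28 under normexp and centring alone stood at -0.17 at 16 months and at -0.02 at 24 months, neither of them called. Cxcl14, an epithelial chemokine, had ratios of -0.16, -0.40 and -0.29 at 6 months, -0.12, -0.19 and -0.25 at 16 months and -0.20, 0.05 and -0.23 at 24 months. It fell by 0.28 at 6 months (SE 0.07, adjusted p = 0.039). With normexp and loess it was at -0.15 (adjusted p = 0.0687), and with normexp and centring alone at 0.10 (adjusted p = 0.402). The call was also lost with all but 2 of the 9 arrays left out in turn (the exceptions were 24 month replicates 2 and 3, adjusted p up to 0.214).

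Of the thymic epithelium markers, 8 of 9 were tested. Of these, 5 fell at 6 months (4.76% of all probes fell), 2 at 16 months (6.59%) and 1 at 24 months (13.3%). The 24 month count is near the background. Their summed Cy3 signal was 5969 to 6094 at 6 months, 6707 to 7254 at 16 months and 7358 to 10646 at 24 months, against 8973 to 9973 in the reference. All 8 were well above background on every array in Cy3. Their part in the lower Cxcl12, Cxcl14 and Ccl28 was not tested.

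The neutrophil-attracting CXC ligands, which act on Cxcr2, went in different directions. Cxcl2 had log2 ratios of -0.39, 0.76 and 0.53 at 6 months, 0.40, 0.33 and 0.41 at 16 months and 0.62, 1.00 and 0.40 at 24 months. All arrays but 6 month replicate 1 were above 0. It was 1.60-fold higher than the reference at 24 months (log2 0.68, SE 0.20, adjusted p = 0.0431), a call lost with all but 2 of the 9 arrays left out in turn (the exceptions were 6 month replicates 1 and 2, adjusted p up to 0.191). Cxcl15, known chiefly as a lung chemokine, had ratios of 0.25, 0.03 and 0.23 at 6 months, 0.01, -0.35 and 0.12 at 16 months and -0.24, -1.30 and -0.77 at 24 months. The 24 month arrays were below all 6 month arrays and overlapped with the 16 month ones in a single value. Its Cy3 signal was well above background on only 1 of the 3 arrays at 24 months. With that limit, Cxcl15 stood at -0.77 against the reference at 24 months (SE 0.18, adjusted p = 0.02) and 0.94 below 6 months on the log2 scale (-0.94, SE 0.25, adjusted p = 0.448). The first call was lost without 24 month replicate 2 or 3 (adjusted p up to 0.0746). The direction turned with normexp and centring alone, to 0.76 (adjusted p = 0.00343). Cxcl1 stayed between -0.09 and 0.14 on all 9 arrays.

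**Figure D2:**
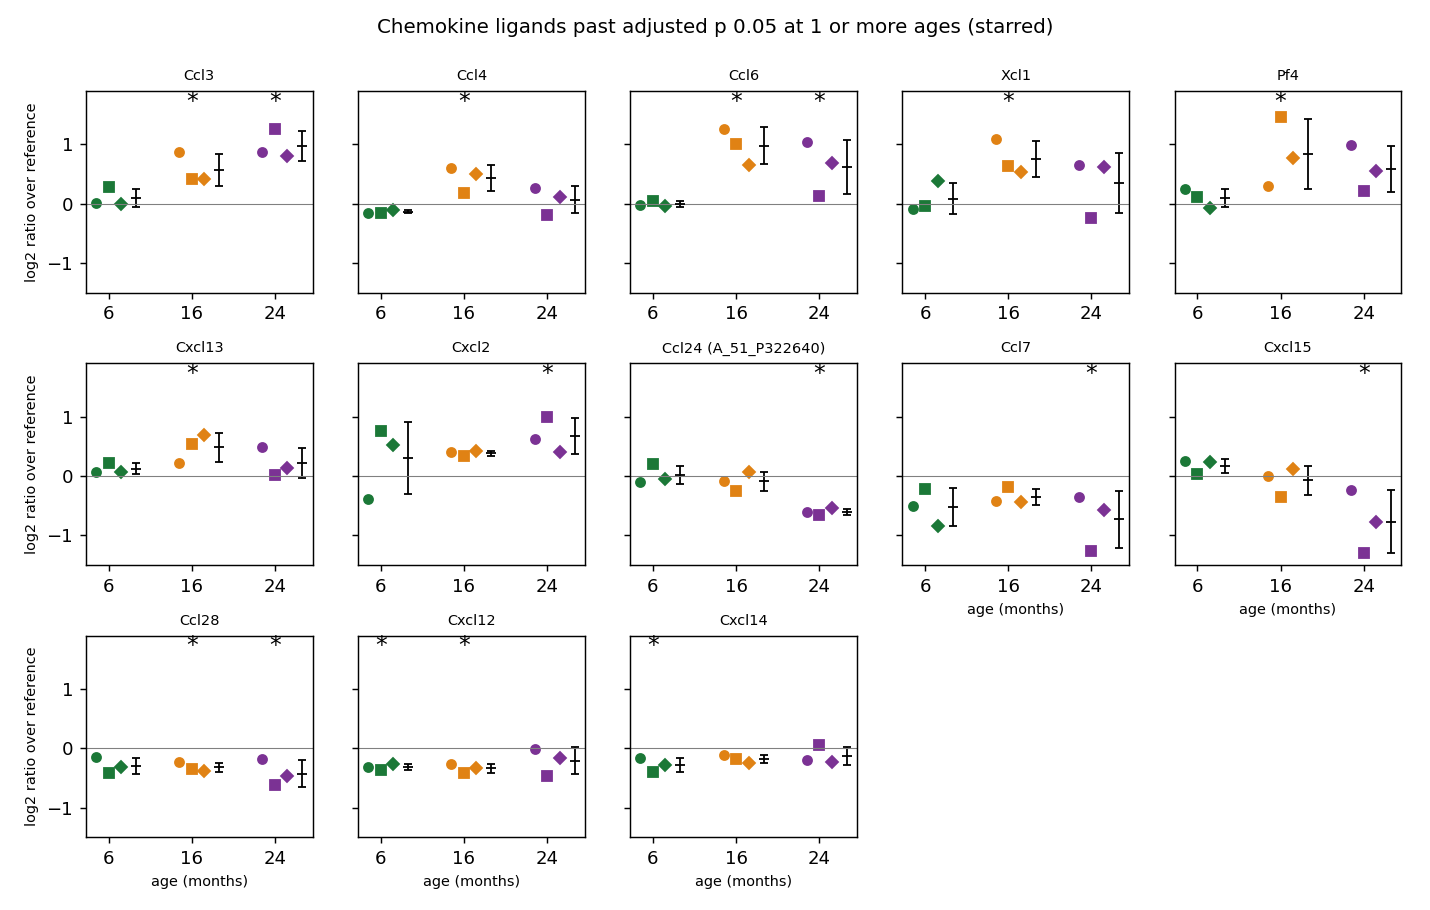
Log2 ratio over the 1 month reference (y axis) by age in months (x axis) for the 13 chemokine probes called at 1 or more ages. Points are arrays (circle, square and diamond for replicates 1, 2 and 3), black bars are the mean and SD of 3 arrays, and a star marks adjusted p under 0.05 in limma. Ccl4, Ccl6, Xcl1, Pf4 and Cxcl13 have their highest mean at 16 months, with 24 month replicate 2 lowest of its age, and Ccl3 has its highest mean at 24 months.

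Cxcl9 and Cxcl10, the interferon-induced ligands of Cxcr3, passed no test at any age. Cxcl9 had log2 ratios of -0.57, -0.27 and -0.93 at 6 months, 0.24, -0.14 and 0.10 at 16 months and 0.94, -0.34 and 0.23 at 24 months. Every 16 month array was above every 6 month array (difference 0.65, SE 0.31, adjusted p = 0.769), and the 24 month arrays reached from the 6 month range to the highest value. Cxcl10 had ratios of -1.65, -0.63 and -0.82 at 6 months, 0.00, -1.24 and -0.29 at 16 months and 1.11, -1.02 and -0.19 at 24 months. Its Cy3 signal was well above background on only 1 of 3 arrays at 6 months and on 2 of 3 at 16 and at 24 months. With that limit, it stood at -1.03 against the reference at 6 months (SE 0.40, adjusted p = 0.124) and 1.00 higher at 24 than at 6 months (SE 0.56, adjusted p = 0.622). Its 3 ages overlapped.

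Cx3cl1, the membrane-anchored ligand of the monocyte receptor Cx3cr1, had log2 ratios of -0.08, -0.89 and -1.55 at 6 months, -0.49, 0.00 and 0.00 at 16 months and 1.25, -0.97 and 0.41 at 24 months. Its Cy3 signal was well above background on only 1 of 3 arrays at 6 months and on 2 of 3 at 16 and at 24 months, so its 24 against 6 month difference of 1.07 (SE 0.56, adjusted p = 0.597) is set against values mostly not well above background and has no place in a ranking. Ccl8, a monocyte chemoattractant, had ratios of -0.05, 0.08 and -0.09 at 6 months, 1.12, -0.20 and 0.04 at 16 months and 2.22, -0.22 and 0.87 at 24 months. Against the reference it was at 0.96 at 24 months (SE 0.41, adjusted p = 0.122). Ccl21c, of the medullary and lymphoid Ccr7 ligands, had ratios of 0.35, -0.41 and -0.20 at 6 months, -0.07, -0.56 and -0.29 at 16 months and 2.09, -0.87 and -0.10 at 24 months. In all 3 genes the highest of the 9 values was on 24 month replicate 1, and in Ccl8 and Ccl21c the lowest was on 24 month replicate 2. On the latter array Ccl21c was not well above background in Cy3. No comparison of these genes passed.

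As processed by the authors, the spread between the 3 mice of an age was widest at 24 months. The median SD of a chemokine probe was 0.15 at 6 months, 0.16 at 16 months and 0.40 at 24 months, where the median over all probes was 0.12, 0.13 and 0.15. An SD over 0.5 was seen for 4, 4 and 12 of the 29 probes, against 5.14%, 4.79% and 8.98% of all probes. Some wide 24 month probes, among them Ccl21c, Cx3cl1 and Cxcl10, were not well above background in Cy3 on 24 month replicate 2. With normexp and loess the chemokine medians were 0.06, 0.07 and 0.14, against 0.08, 0.08 and 0.09 over all probes. With normexp and centring alone they were 0.29, 0.08 and 0.22, so that 6 months was then the widest. The medians over all probes were then 0.24, 0.10 and 0.21, so the chemokine spread was near that of the array. Under that treatment 3 of 29 probes had an SD over 0.5 at 24 months, against 3.51% of all probes. Over the 2 arrays that remained, as processed by the authors, the 24 month median SD was 0.34 without replicate 1, 0.22 without replicate 2 and 0.56 without replicate 3. The medians over all probes were 0.15, 0.10 and 0.12.

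Replicates 1 and 2 lay furthest apart. Replicate 1 at 24 months had the highest of the 9 log2 ratios for 12 of 29 chemokine probes, against 8.18% of all probes. These were Ccl2, Ccl8, Ccl9, Ccl17, Ccl21c, Cx3cl1, Cxcl9, Cxcl10, Cxcl12, probe A_51_P458258 of Ccl19 and both probes of Cxcl16. Replicate 2 had the lowest ratio for 13 of 29, against 26.9% of all probes. Among these, Ccl7, Ccl17, Ccl21c, Cxcl15, A_51_P322640 of Ccl24 and A_51_P374203 of Cxcl16 were not well above background in Cy3 on that array. Neither were Ccl2, Cx3cl1 and Cxcl10. Their distance between replicates 1 and 2 is thus partly one from the background and cannot be read as spread between mice alone. With normexp and loess replicate 1 was highest for 13 of 29 chemokine probes (8.25% of all probes) and replicate 2 lowest for 3 (18.9%). With normexp and centring alone replicate 1 was highest for 7 (4.1%) and replicate 2 lowest for 3 (36%), and replicate 2 was then also highest for 11 (32.2%). The Ccl19 probe, for the other main Ccr7 ligand, was at 1.33, -0.44 and 0.06 at 24 months and between -0.41 and -0.11 on the younger arrays. The second Ccl19 probe, A_51_P458262, did not share this pattern, with 0.70, -0.21 and 1.34. Ccl17, a ligand of Ccr4, was at 0.43, -0.87 and -0.21. Of the probes of Cxcl16, a membrane-bound ligand of Cxcr6, A_51_P374203 was at 0.63, -1.18 and 0.32 and A_52_P99888 at 0.38, 0.05 and 0.15.

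Some marker lists of non-thymocyte cells were also high on 24 month replicate 1. There, 5 of 8 thymic epithelium genes and 7 of 14 dendritic cell and macrophage genes had their highest value of the 9 arrays, as did 2 of 5 fibroblast genes, 1 of 5 B cell genes and 1 of 4 endothelial genes, where 8.18% of all probes did. In the granulocyte (9), NK and cytotoxic (7), erythroid (4) and thymocyte (10) lists 0 genes did. The mean log2 ratio of the epithelium list was 0.16, -0.45 and -0.25 on the 3 arrays at 24 months, that of the dendritic cell and macrophage list 0.62, -0.12 and 0.28, and that of the fibroblast list 0.89, -0.17 and 0.31. The summed Cy3 signal of the 5 fibroblast genes was 7436 to 9177 at 6 months, 8986 to 13436 at 16 months and 7642 to 14153 at 24 months, against 6714 to 8484 in the reference, and 1 of the 5 was not well above background on 6 month replicates 2 and 3 and on 24 month replicate 2. Of the 10 thymocyte genes 3 were saturated in at least 1 channel, and the mean of the other 7 was -0.01, -0.06 and 0.03 on the 3 arrays at 24 months. The part of these cells in the chemokine values was not tested.

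**Figure D3:**
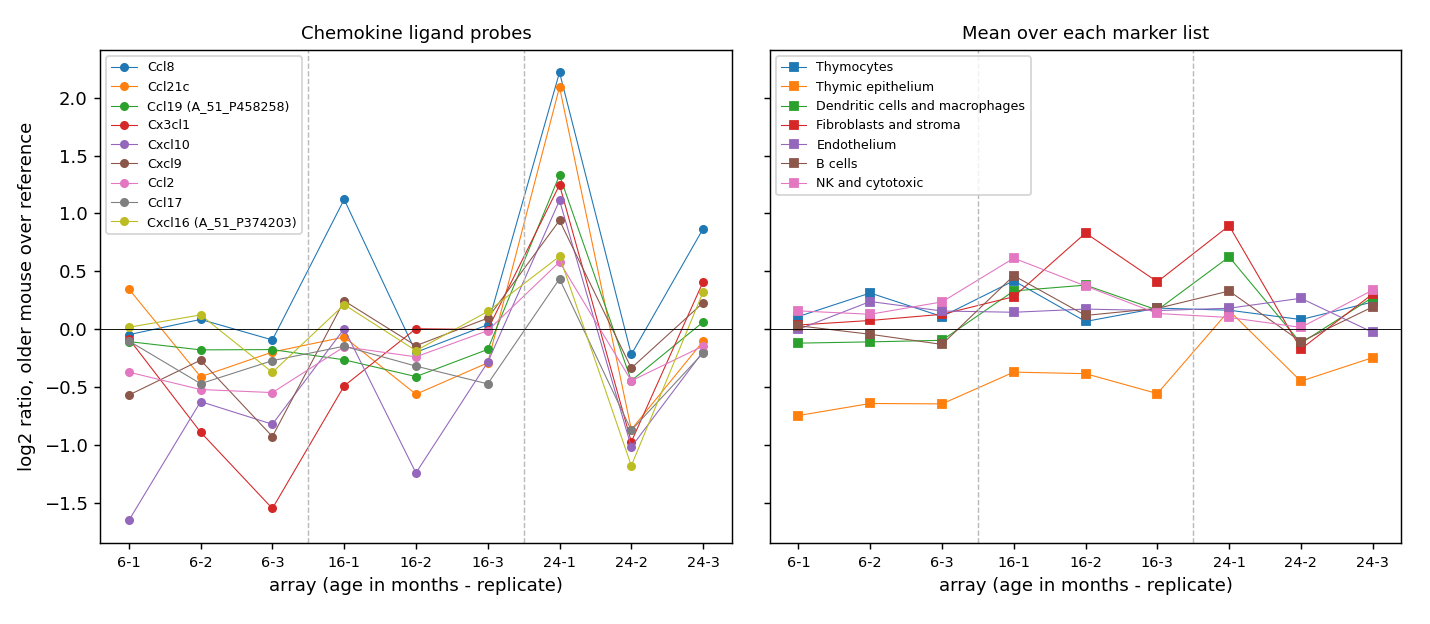
Log2 ratio over the 1 month reference (y axis) on each of the 9 arrays (x axis, age in months and replicate) for 9 of the chemokine probes highest on 24 month replicate 1 (left) and for the mean of 7 marker lists (right, where the thymocyte mean includes 3 genes saturated in at least 1 channel). Lines join the points of a probe or list and imply no order of arrays. On 24 month replicate 1 Ccl8 and Ccl21c exceed 2, and the fibroblast and macrophage lists are at 0.89 and 0.62. On 24 month replicate 2 Ccl2, Ccl17, Ccl21c, Cx3cl1, Cxcl10 and the Cxcl16 probe were not well above background in Cy3.

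Ccl11 and Ccl22 were too dim to be tested. Ccl11, the eotaxin of stromal cells, was well above background on 2 of 3 arrays at 24 months, on 1 of 3 at 16 months and on 0 of 3 at 6 months. Its log2 ratios were 2.39, -0.14 and 1.64 at 24 months, so it was high on the same arrays as Ccl8. Set against a floor, the Ccl11 mean was 2.01-fold higher at 24 than at 6 months, which rests on 24 month replicates 1 and 3. Replicate 2, at a log2 Cy3 signal of 5.21, lay below all 6 month arrays (5.74, 5.40 and 6.78). This fold sets the mean of the brighter age against the lowest signal that counts as well above background on each array of the dimmer age, or the probe's own signal where that is higher. That lowest signal may belong to any probe, so the fold is no strict limit for Ccl11. Ccl22, a dendritic cell ligand of Ccr4, was well above background in Cy3 on 1 array at 6 months and 1 at 24 months and on none in the reference. Its log2 ratios of -0.85, 0.38 and 3.92 at 6 months and -0.08, -2.65 and 2.47 at 24 months give no fold between ages, since at most 1 array of an age measured it.

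The receptors were measured on the same arrays. Of 20 tested receptor genes 1 rose and 1 fell at 6 months, 5 rose and 0 fell at 16 months, and 5 rose and 1 fell at 24 months, and limma called 0 between the older ages. Over all probes 7.61%, 11.4% and 11.6% rose and 4.76%, 6.59% and 13.3% fell at these ages. With normexp and centring alone 4, 4 and 6 of the 20 rose and 5, 1 and 5 fell. Over all probes 10610, 8075 and 13409 then rose and 8729, 8095 and 13015 fell. Cxcr6, the receptor of Cxcl16 on activated and innate-like T cells, was at 1.06, 0.61 and 0.95 at 6 months, 3.38, 3.57 and 1.89 at 16 months and 1.74, 1.44 and 2.06 at 24 months. The 6 month arrays lay below all others. It rose at 16 months (log2 2.95, SE 0.29, adjusted p = 0.00195) and at 24 months (1.75, SE 0.29, adjusted p = 0.00737), and differed by 2.07 between 16 and 6 months (SE 0.41, adjusted p = 0.769). Its ligand Cxcl16 was not called at any age.

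Ccr2, the receptor of Ccl2 and Ccl7, rose by 1.06 at 16 months (adjusted p = 0.00331) and 1.02 at 24 months (adjusted p = 0.00373). Cxcr4, the receptor of Cxcl12, rose by 0.67 at 6 months (adjusted p = 0.0192), 0.69 at 16 months (adjusted p = 0.0113) and 0.77 at 24 months (adjusted p = 0.00724), while Ackr3, the scavenging receptor of Cxcl12, fell by 0.25 at 6 months and 0.26 at 24 months (adjusted p = 0.0282 and 0.0168). Cxcr3 (0.88, adjusted p = 0.0169) and Ccr6 (0.71, adjusted p = 0.0236) rose at 16 months. These values kept their sign with normexp and centring alone, but Cxcr4 (0.32, 0.32 and 0.23) and Ccr6 (0.37) were not called. Xcr1, the receptor of Xcl1, rose by 0.24 at 24 months (adjusted p = 0.0188) and stood at -0.47 with normexp and centring alone (adjusted p = 0.0185). The receptors with the smallest p for 24 against 6 months were Xcr1 (0.33, SE 0.08, adjusted p = 0.42) and Ccr10 (0.32, SE 0.08, adjusted p = 0.426), and for 24 against 16 months Cxcr6 (-1.20, SE 0.41, adjusted p = 0.862).

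Of 17 genes for signalling downstream of the receptors, 3 rose and 1 fell at 6 months, 6 rose and 1 fell at 16 months, and 7 rose and 1 fell at 24 months (the same shares over all probes, 7.61%, 11.4% and 11.6% up and 4.76%, 6.59% and 13.3% down, apply). With normexp and centring alone 3, 4 and 5 of the 17 rose and 3, 3 and 7 fell, beside the counts over all probes given for the receptors. Grk2, a riser at 24 months (0.22, adjusted p = 0.0249), then stood at -0.59 (adjusted p = 0.0116). Vav1, a guanine exchange factor, rose at all 3 ages (0.80, 0.87 and 0.77, adjusted p = 0.00568, 0.00239 and 0.00335). Ptk2b (0.57, 0.62 and 0.47) rose with it, as did Rac1, a GTPase of cell migration, at 16 months (0.50, adjusted p = 0.0366) and 24 months (0.49, adjusted p = 0.0311). With normexp and centring alone Vav1 was called only at 16 months (0.41, 0.46 and 0.17), and Ptk2b and Rac1 at none of these ages. Elmo1, a partner of the exchange factor Dock2, fell by 0.50 at 6 months and 0.65 at 24 months (adjusted p = 0.045 and 0.0132). Rac2 rose by 0.34, 0.40 and 0.37 at the 3 ages (adjusted p = 0.0278, 0.0123 and 0.0136), but with normexp and centring alone it stood at -0.25, -0.19 and -0.61, the last called lower (adjusted p = 0.0119). Plcb3, a phospholipase, fell by 0.45 at 16 months (adjusted p = 0.0235), and stood at 0.37 with normexp and centring alone. For 16 against 6 months the smallest p belonged to Plcb3 (-0.47, adjusted p = 0.769) and Rgs3 (0.42, adjusted p = 0.769).

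The chemokine calls also depended on the treatment of the raw signals. All 17 calls of chemokine probes against the reference kept their sign with normexp and loess, and 13 kept adjusted p under 0.05. With normexp and centring alone, which applies no dye correction that varies with intensity, 11 kept the call, 2 lost it and 4 changed sign. This treatment called 19339, 16170 and 26424 of all 37448 probes at 6, 16 and 24 months, so a call kept under it says little about a member. The reversed ones were Cxcl14 at 6 months and Ccl24, Ccl7 and Cxcl15 at 24 months, which then stood at 0.72, 0.74 and 0.76 and were called higher. The calls of Ccl6, Ccl4, Xcl1, Pf4 and Cxcl13 at 16 months, of Cxcl12 at 6 and 16 months and of Ccl6 and Cxcl2 at 24 months held under all 3 treatments. With only the arrays of the compared age in the fit, which leaves fewer arrays to estimate the spread, 3 of the 17 calls were kept (Ccl6, Xcl1 and Cxcl12 at 16 months). At 24 months that fit called 0 probes over the whole array, so no 24 month call could be kept. Over all probes, rises were 63.4% of the calls at 16 months as processed by the authors, 53.1% with normexp and loess and 49.9% with normexp and centring alone.

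**Figure D4:**
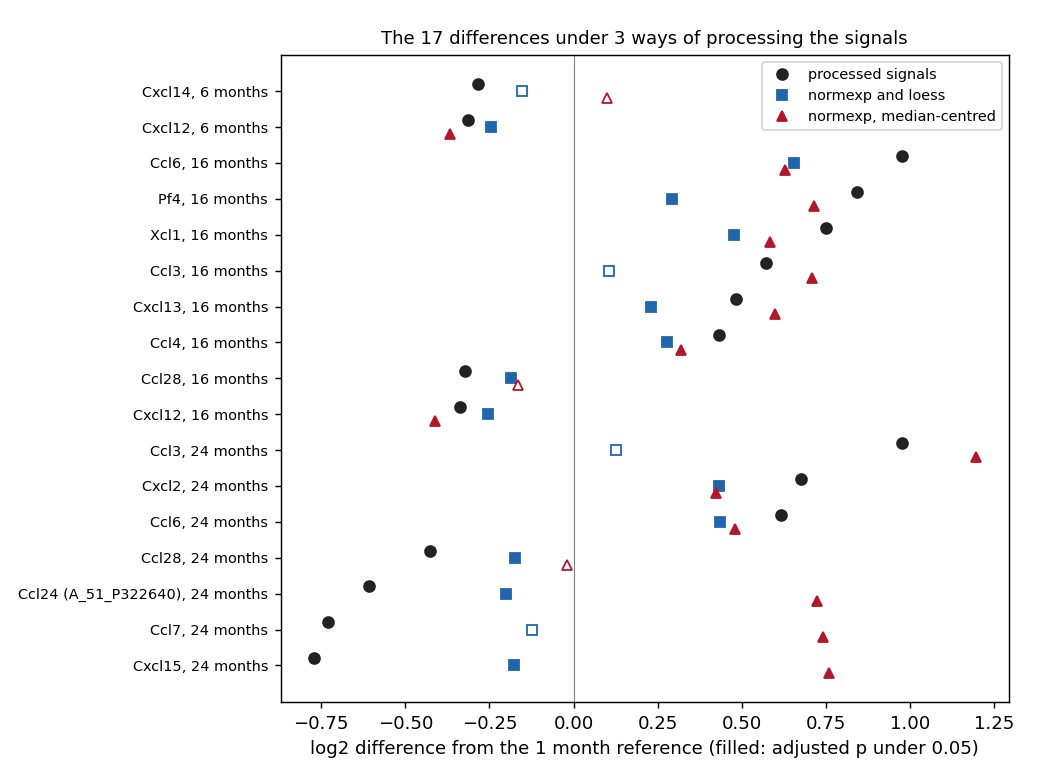
Log2 difference from the 1 month reference (x axis) for the 17 called chemokine differences (y axis) with the deposited processed signals (black circles), normexp and loess (blue squares) and normexp with median centring (red triangles). Filled symbols have adjusted p under 0.05. The differences of Ccl24, Ccl7 and Cxcl15 at 24 months lie on opposite sides of 0 under the first and the last treatment.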

How the data were processed

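Thymocyte RNA was measured on 9 Agilent 2-colour arrays (18 channels). The intensity values, as deposited per the file headers, were background-subtracted with spatial detrending and LOWESS dye normalization (smooth factor 0.25) in Feature Extraction 7.5.1 (7.1 per the submitters' processing notes). The deposited score of each channel equals, as checked, a z-score over its log10 processed signals, made by the authors. The genome build is not given in the sources used here. Outlier spots were left out and spots of a probe averaged. Testing required the well-above-background mark in Cy3 on every array of an age, or in Cy5 on all 9 arrays. The log2 ratios were fitted in limma 3.58.1 (R 4.3.3) with 1 coefficient for each age (prior degrees of freedom 1.94, residual 6), with two-sided Benjamini-Hochberg adjustment over 37448 probes. Nothing in the labels states how far mice of an age were independent, so p-values measure the spread between these samples. The members and lists were chosen with earlier results of these data known. Genes given per array were those with a call and, in each comparison, the 3 highest and 3 lowest differences, and for receptors and signalling up to 4 calls or the 2 smallest p. Alternatives were normexp (offset 50) with loess or median centring, centred processed signals, the deposited scores, other filters, a replicate block, an intensity trend, outlier spots kept, only the compared ages, and each array left out. The method was tested on simulated data, which held random noise and known shifts only. They had no dye bias and no background floor, so they do not bear on those limits. Tables and figures used Python 3.11.15, pandas 2.3.3, numpy 2.4.6 and matplotlib 3.10.9. The NF-kB and interferon response motifs were each shortened by 1 letter after matches to the longer forms, which fewer genes hold, had been seen.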

Additional observations from a re-analysis of the deposited data

Results flagged for a closer look

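The 9 Cy5 channels of the 1 month reference were examined for arrays far from the others, for each of the 29 tested chemokine probes, and 3 stood out by Dixon's criterion. Chance flags about 1 in 20 groups. The Ccl6 reference signal was 8.80 on the log2 scale on 16 month replicate 1, with the nearest other array at 9.24. This is also the array with the highest Ccl6 log2 ratio (1.27). Without it Ccl6 kept its call at 16 months. The Ccl17 reference signal was 8.13 on the same array, with the nearest at 8.32. The Ccl21c reference signal was 7.60 on 6 month replicate 1, with the nearest at 8.00, and that array had the highest Ccl21c log2 ratio (0.35) of the 6 and 16 month arrays.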

How the results depend on the processing

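The count of called chemokine probes at 6, 16 and 24 months against the reference was 2, 8 and 7. With normexp and loess it was 5 at 6 months, where over all probes 3345 rose and 2870 fell. With normexp and centring alone it was 13, 13 and 23, of which 10, 11 and 19 rose. The counts over all probes were then 19339, 16170 and 26424 in place of 4632, 6746 and 9335. With only probes well above background in all channels (19 chemokine probes of 31689) it was 4 at 6 months and 3 at 24 months. Without a filter it was 1 at 6 months. The calls over all probes under these filters are not given here, so the changes cannot be read as particular to the chemokines. With only the compared age in the fit it was 0, 4 and 0 (all probes 1132, 3534 and 0). The replicate block gave 1 at 6 months (all probes 2427). Same-numbered arrays correlated between -0.31 and 0.10, and differently numbered ones between -0.26 and 0.335. These values show no pairing by number, but with 3 arrays per age they cannot exclude it. Leaving out each array gave 0 to 5, 1 to 8 and 4 to 7 (all probes 290 to 5406, 1240 to 7728 and 3505 to 8712). All other counts stayed within 1.5 times, and between the older ages the chemokine count was 0 under every alternative, with at most 1 probe called over the whole array. Signs changed only with normexp and centring alone, among the differences followed. Against the reference Cxcl14 stood at 0.10 at 6 months, and Ccl24 (A_51_P322640), Cxcl15 and Ccl7 at 0.72, 0.76 and 0.74 at 24 months (adjusted p = 0.00694, 0.00343 and 0.00478). For 16 against 6 months Ccl3, Cxcl9 and Ccl2 stood at -0.31, -0.044 and -0.0040. For 24 against 6 months Ccl24 (A_51_P322640), Ccl9 and Cxcl15 stood at 0.051, -0.021 and 0.061, and for 24 against 16 months the Ccl24 probes A_52_P18116 and A_51_P322640 stood at 0.27 and 0.17. The cause was not tested. The leave-one-out spread at 24 months was added after the data were seen.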

Other observations

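Chemokine ligand probes that the array names otherwise gave values outside the comparisons above. A probe that the array calls Gm1960, now Cxcl3, differed from the reference by 0.00 at 6 months, 0.04 at 16 months and -0.05 at 24 months (SE 0.12). A probe described as Ccl27 stood at 0.05, -0.01 and -0.11 (SE 0.07). Neither was called in limma. A further probe assigned to Cx3cl1 through a synonym was not bright enough to be tested.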
